A study of Mus musculus with 6 samples.

Results

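Rab GTPases are small GTP-binding proteins that mark the membranes of the secretory and endocytic pathways. Guanine nucleotide exchange factors load them with GTP at a membrane, the GTP-bound form recruits effectors that move, tether and fuse vesicles, and GTPase-activating proteins end the cycle, after which GDP dissociation inhibitors carry the prenylated protein back to the cytosol. In NK cells, cytotoxic lymphocytes that kill infected and tumour cells, such steps carry lytic granules and cytokines to the cell surface. Rab genes were taken as the genes whose symbol in the platform annotation is Rab followed by a number and at most 1 letter, with 1 family gene not reported here. They comprised 58 of the 18193 genes with a symbol on the array and were read by 128 of its 45101 probe sets.

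The samples were resting NK cells from the spleen of 6-week-old ICR mice, 3 lacking Runx3 (Runx3-/-) and 3 wild type (WT), with 1 Affymetrix mouse genome array for each mouse. Runx3 is a RUNX family transcription factor that is abundant in cytotoxic lymphocytes, and the comparison asked which transcripts differ when it is absent. Negative selection enriched the cells, which were then sorted for DX5, a surface integrin that basophils carry as well. The sex label of every sample reads male and female, so sex could not be taken into account. Values are log2 signals, and a gene was tested when it reached log2 5 on at least 1 array, which 9545 genes did. In whole-sample RNA, a change in how many cells of a type were present and a change of RNA per cell cannot be told apart.

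The targeted gene came first as a check of the labels. Runx3 had log2 signals of 7.76, 8.51 and 8.68 on the Runx3-/- arrays and 10.11, 11.56 and 10.73 on the WT arrays, so the groups did not overlap (-2.48, adjusted p = 0.0565 by limma). Runx3 is read by 2 probe sets, of which the one with the higher mean is given. Whether either lies inside the deleted stretch was not examined. Between 37.9% and 39.4% of probe sets per array reached log2 5. Of the 7 NK cell markers tested, including Ncr1, Klrd1 and Nkg7, none was higher and 1, Eomes, was lower in Runx3-/- at an unadjusted p under 0.05 with at least 1.5-fold, and the summed linear signal of the list was 78600 to 87700 in WT and 69600 to 86400 in Runx3-/-. Most genes on the list of basophil and mast cell markers were higher in Runx3-/-. The list was chosen with earlier results of these data known, so the count is a description. Of 14 tested, 11 were higher and 0 lower by the same criterion, and Kit, Cd200r3 and Il4, at 0.09, -0.36 and 0.89, did not meet it. The summed linear signal of the list was 10800 to 13400 in WT and 30900 to 52300 in Runx3-/-, with Il3ra below log2 5 on every array. Of 8 tested B cell markers 6 were higher, with sums of 887 to 1740 in WT and 2300 to 4070 in Runx3-/- and the defining factor Pax5 below log2 5 on all arrays. Of 10 macrophage markers 1 was higher, with sums of 2110 to 2760 in WT and 535 to 12800 in Runx3-/-, the last value being Runx3-/- replicate 1. Of 6 neutrophil markers 0 were higher and 1 lower, with sums of 122 to 2820 in WT and 181 to 4050 in Runx3-/-, where replicate 1 was again highest. Of 4 tested dendritic cell markers 0 were higher by this criterion and 1, Itgax, was lower. Its signal made up most of the sums of 1680 to 3830 in WT and 565 to 1170 in Runx3-/-, and Cd209a, Siglech and Xcr1 were below log2 5 on all arrays. None of 5 T cell and 3 platelet markers tested met the criterion. The T cell sums, 2080 to 3330 and 2670 to 2900, and the platelet sums, 338 to 3020 and 1340 to 3130, overlapped.

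Most of the Rab family was present in these cells and few members differed between the genotypes. Of the 58 genes, 41 reached log2 5 on at least 1 array and were tested, and 36 reached it on all 6. The other 17 stayed below log2 5 on every array. They were the ER and Golgi members Rab30 and Rab33a, the late endosomal and autophagy members Rab34, Rab36, Rab39, Rab39b, Rab7b and Rab9b, the recycling and polarised transport members Rab13, Rab15 and Rab25, the secretory members Rab26, Rab3b and Rab3c, and Rab23, Rab40b and Rab42. Several of these, such as Rab25 of epithelia and Rab3c of neurons, are best known from other tissues. A value below log2 5 is read here as near background and not as absence.

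None of the 41 tested Rab genes passed a Benjamini-Hochberg (BH) level of 5% in limma, where 0.608% of all tested genes did, and 3 of them, Rab20, Rab37 and Rab44, had an unadjusted p under 0.05, which is 7.32% beside 16% of all tested genes. A looser criterion of an unadjusted p under 0.05 with at least 1.5-fold was met by 1 member in each direction. Rab44 was higher in Runx3-/-, which is 2.44% of the tested members beside 4.89% of all tested genes, and Rab20 was lower, 2.44% beside 8.86%. The WT and Runx3-/- arrays did not overlap for 6 members, 14.6% of those tested, where 22.8% of all genes did not. These were Rab33b, Rab37 and Rab44 on the higher side and Rab20, Rab29 and Rab35 on the lower. The family therefore held no larger share of called genes than the array as a whole.

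The sizes of the differences were small as well. The median log2 difference, Runx3-/- minus WT, was 0.01 over the 41 members and -0.13 over all tested genes, and the median absolute difference was 0.19 beside 0.30. In all, 21 members had a higher mean in Runx3-/- and 20 a lower one, so 51.2% were higher, against 37.8% of all genes. A mean difference of 1.5-fold or more, whatever its p, was seen for 4 members, Rab20, Rab38, Rab44 and Rab5b, or 9.76%, where 21.4% of all genes had one. The 95% confidence interval lay wholly within 1.5-fold in either direction for 7 members, 17.1% of those tested, against 8.45% of all genes. These were Rab1b, Rab10, Rab11a, Rab11b, Rab12, Rab14 and Rab19, each by its brightest probe set. For the remaining members the interval still held a difference of 1.5-fold or more in at least 1 direction, so 3 arrays a group did not show that their levels were alike. The plot of changes by role gives each interval.

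**Figure D1:**
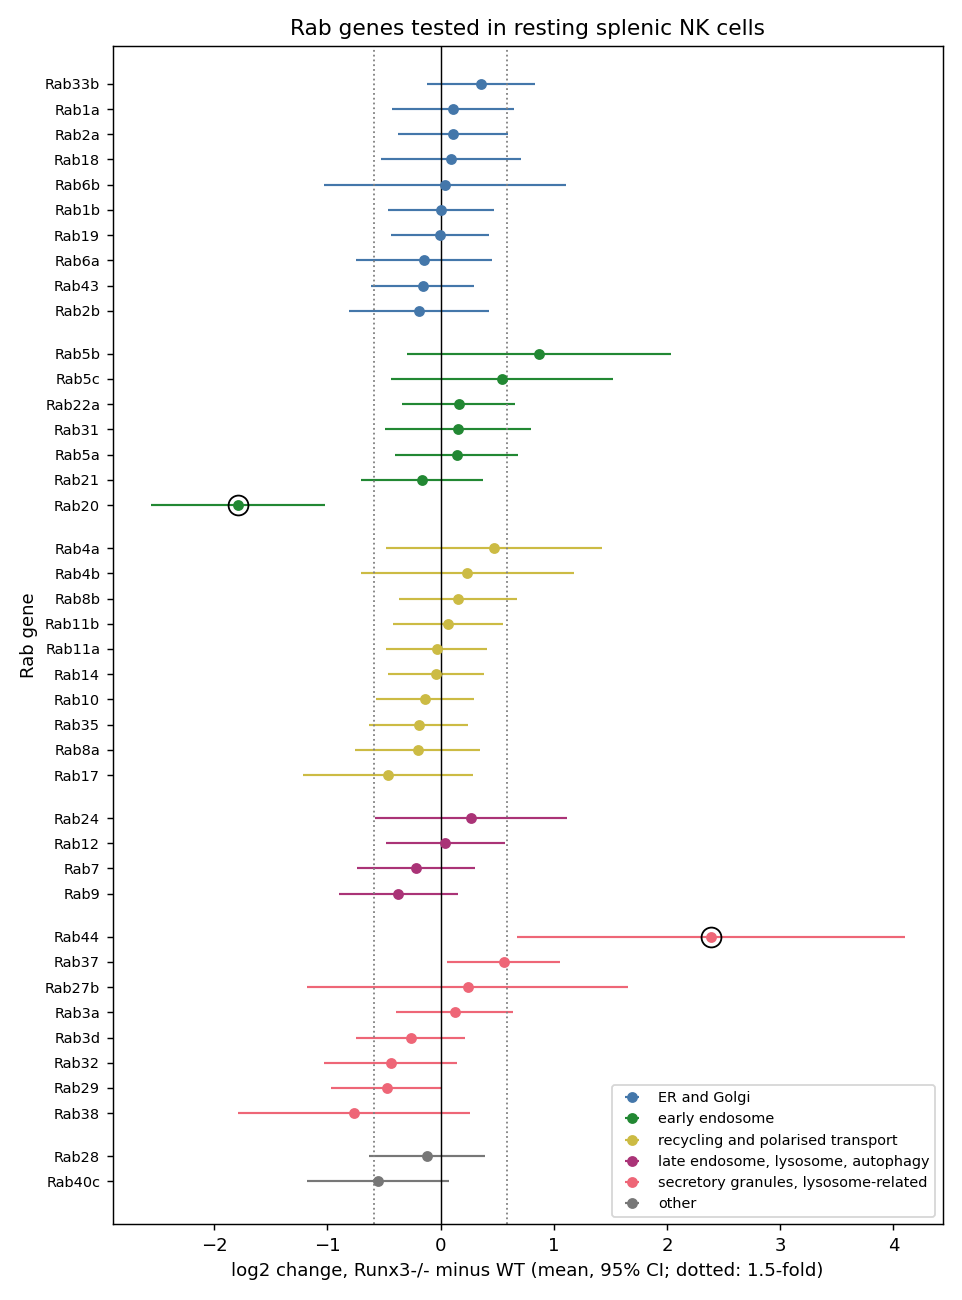
Log2 difference in signal, Runx3-/- minus WT, for each of the 41 tested Rab genes, grouped and coloured by role; points are means of 3 against 3 arrays, bars are 95% confidence intervals from limma, dotted lines mark 1.5-fold, and circles mark the 2 genes with an unadjusted p under 0.05 and at least 1.5-fold. Rab44 at 2.39 and Rab20 at -1.79 stand apart, and most other intervals cross 0.

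The promoters of members whose groups did not overlap are shown because the protein missing from the Runx3-/- cells binds a short DNA motif, and Rab20 is the called member whose promoter was in the table used, while Rab33b stands for those higher in Runx3-/-. The letters are the 250 bases before the RefSeq transcription start on assembly GRCm38.p6, written 5′ to 3′ on the strand of the gene, and capitals mark a match to a RUNX motif (TGTGGT or TGTGGC or TGCGGT or TGCGGC, on either strand). The Rab20 window is chr8:11478641-11478890 on the minus strand and the Rab33b window is chr3:51483716-51483965 on the plus strand.
Rab20: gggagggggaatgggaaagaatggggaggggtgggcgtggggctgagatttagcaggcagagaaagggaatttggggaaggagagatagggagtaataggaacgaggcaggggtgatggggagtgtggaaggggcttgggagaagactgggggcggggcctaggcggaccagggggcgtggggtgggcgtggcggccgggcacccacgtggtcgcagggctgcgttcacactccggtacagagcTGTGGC
Rab33b: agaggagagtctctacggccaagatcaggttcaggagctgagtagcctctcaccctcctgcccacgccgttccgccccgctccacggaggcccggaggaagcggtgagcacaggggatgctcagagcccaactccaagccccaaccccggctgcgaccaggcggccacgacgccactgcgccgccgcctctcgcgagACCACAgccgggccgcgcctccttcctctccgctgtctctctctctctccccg
Rab20 held 1 match, TGTGGC, from 6 to 1 bases before the start, and 65.2% of its 250 bases were G or C. Rab33b held 1 match on the opposite strand, printed as ACCACA, from 53 to 48 bases before the start, and was 69.2% G or C. The windows of Rab29, with GCCACA from 122 to 117 bases before the start, and Rab35, with TGCGGC from 136 to 131, held 1 each. Rab44 and Rab37 had no entry in the table. Such matches are common. RefSeq windows of 250 bases before to 50 bases after a start were found for 47 of the 58 Rab genes, 58 windows in all, of which 48.3% held at least 1 match beside 45.2% of 32851 windows of all genes. The share was 51.3% for the tested Rab genes and 42.1% for those not tested. Rab promoters were richer in G and C, with a median of 61.5% against 52.7%, and in CpG, with a median observed over expected ratio of 0.746 against 0.384. A match is a description of the letters and no evidence of binding, which these arrays do not measure.

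Among the Rabs of the endoplasmic reticulum and Golgi, 10 of 12 were tested, 0 met the looser criterion, and the median log2 difference was 0.02. Rab1a, which drives vesicles from the endoplasmic reticulum to the Golgi, had log2 signals of 13.01, 13.08 and 12.75 in WT and 13.05, 13.36 and 12.76 in Runx3-/-. Its close relative Rab1b gave 10.14, 10.42 and 10.17 in WT and 10.44, 10.12 and 10.20 in Runx3-/-. Both groups overlapped, and the differences of 0.11 and 0.01 lay within the spread between mice. Rab2a, which acts between the same compartments, read 12.86, 12.58 and 12.55 in WT and 12.56, 12.96 and 12.80 in Runx3-/-. Rab6a, a Golgi Rab of retrograde transport, read 11.43, 11.10 and 11.18 in WT and 10.65, 11.47 and 11.15 in Runx3-/-, with Runx3-/- replicate 1 below the other arrays. Rab43 read 10.36, 10.60 and 10.63 in WT and 10.53, 10.32 and 10.27 in Runx3-/-. Neither of these differed beyond the spread by its brightest probe set. The other Rab6a probe sets gave -0.33 and -0.44, the latter without overlap (unadjusted p = 0.0764, adjusted p = 0.392 by limma over all probe sets). Another Rab43 probe set, given below, was 1.19 higher. Rab33b, a Golgi Rab that binds the autophagy protein Atg16l1, was the 1 member of the group whose brightest probe set had no overlap. It read 10.21, 10.31 and 10.66 in WT and 10.69, 10.81 and 10.76 in Runx3-/-, a 1.28-fold difference (0.36, adjusted p = 0.421 by limma); WT replicate 3 was close to the lowest Runx3-/- array. The other 4, Rab18, Rab19, Rab2b and Rab6b, had log2 differences from -0.19 to 0.09, and Rab6b reached log2 5 on WT replicate 2 alone.

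All 7 Rabs of early endosomes were tested, and this group held the lower member of the family. That is 14.3% of the group, beside 8.86% of all tested genes. Rab20, which acts on early endosomes and maturing phagosomes and is known as a hypoxia-responsive gene, had log2 signals of 6.82, 6.22 and 7.32 in WT and 4.81, 5.42 and 4.75 in Runx3-/-. Every Runx3-/- array lay below every WT array, and 2 of the 3 were under log2 5, so the level in Runx3-/- is only bounded. The signal was at least 3.13-fold lower in Runx3-/- (-1.79, 95% confidence interval -2.56 to -1.03, unadjusted p = 0.000753, adjusted p = 0.0698 by limma). Across the alternative analyses the log2 difference ran from -2.08 to -1.53 and the adjusted p from 0.0467 to 0.191, and Rab20 met the looser criterion in each of them. Rab20 passed BH 5% only after quantile normalization. Of the marker lists, the dendritic cell sum was lower in Runx3-/- too, which came mostly from Itgax (-2.00), an integrin gene, while Flt3 gave -0.35 and Batf3 and Zbtb46 gave 0.36 and 0.44. The part of these cells in the Rab20 difference was not tested.

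The other early endosomal Rabs had no clear difference by their brightest probe sets. Rab5a, the regulator of early endosome fusion, read 11.66, 11.13 and 11.26 in WT and 11.49, 11.72 and 11.26 in Runx3-/-. Its paralogue Rab5c read 7.14, 8.04 and 7.42 in WT and 7.77, 8.96 and 7.50 in Runx3-/-, with replicate 2 the highest array in each group and the groups overlapping. Rab5b, the third form, reached 5.88, 4.07 and 5.46 in WT and 5.73, 6.69 and 5.61 in Runx3-/-. It was at least 1.47-fold higher in the mean (adjusted p = 0.427 by limma), but WT replicate 1 exceeded 2 of the Runx3-/- arrays. Rab21, which carries integrins, read 10.90, 10.89 and 11.11 in WT and 10.55, 11.19 and 10.66 in Runx3-/-. Rab22a read 9.11, 9.26 and 9.34 in WT and 9.45, 9.63 and 9.10 in Runx3-/-. Rab31 read 9.01, 8.94 and 9.21 in WT and 9.75, 9.03 and 8.84 in Runx3-/-, where Runx3-/- replicate 1 alone stood above the WT range. The log2 differences of Rab21, Rab22a and Rab31 by the brightest probe set were -0.16, 0.16 and 0.15.

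Of 13 members of recycling and polarised transport, 10 were tested, 0 met the looser criterion, and the median log2 difference was -0.04. Rab14, which acts between endosomes and the Golgi, read 13.27, 13.18 and 13.16 in WT and 13.23, 13.20 and 13.06 in Runx3-/-. Rab10 read 12.67, 12.70 and 12.67 in WT and 12.41, 12.68 and 12.52 in Runx3-/-. Rab11a, the marker of recycling endosomes, read 12.45, 12.54 and 12.71 in WT and 12.65, 12.54 and 12.41 in Runx3-/-. For the brightest probe sets of these 3 the 95% confidence intervals lay within 1.5-fold, from -0.47 to 0.38, from -0.57 to 0.29 and from -0.48 to 0.41 on the log2 scale. The other Rab10 probe sets gave -0.34 and -0.43. The latter read 10.03, 9.91 and 10.32 in WT and 9.51, 9.85 and 9.61 in Runx3-/-, without overlap (unadjusted p = 0.0864, adjusted p = 0.406 by limma over all probe sets). Rab8b, of transport to the plasma membrane, read 12.53, 12.26 and 12.04 in WT and 12.54, 12.56 and 12.19 in Runx3-/-. Rab11b read 11.23, 11.51 and 11.74 in WT and 11.58, 11.59 and 11.51 in Runx3-/-. In both the groups overlapped. Rab35, which acts in fast recycling and cytokinesis, read 10.72, 10.76 and 10.91 in WT and 10.48, 10.70 and 10.63 in Runx3-/-. These groups did not overlap, but the difference was 1.14-fold (-0.19, adjusted p = 0.633 by limma). The other 4, Rab17, Rab4a, Rab4b and Rab8a, ran from -0.47 to 0.48. Within WT, Rab4b varied most, with replicate 2 at 9.50 and the others at 10.78 and 11.12. In Runx3-/-, Rab4a and Rab17 varied most, with SDs of 0.65 and 0.64.

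Of the 10 Rabs of late endosomes, lysosomes and autophagy, 4 were tested and 0 met the looser criterion. Rab7, which governs traffic from late endosomes to lysosomes, read 11.93, 12.41 and 12.18 in WT and 11.70, 12.09 and 12.07 in Runx3-/-, with overlap and a log2 difference of -0.22 (95% confidence interval -0.74 to 0.30). Rab9, which returns receptors from late endosomes to the Golgi, read 9.57, 9.65 and 9.61 in WT and 9.03, 9.62 and 9.06 in Runx3-/-. Replicates 1 and 3 of Runx3-/- lay below the WT range and replicate 2 lay inside it (-0.37, adjusted p = 0.445 by limma). Rab24, linked to autophagy, read 10.25, 9.16 and 10.51 in WT and 10.43, 9.96 and 10.34 in Runx3-/-, and WT replicate 2 was the low array. Rab12 read 7.12, 6.65 and 7.09 in WT and 6.77, 7.16 and 7.06 in Runx3-/-. Of the 5 Rabs placed in no group, Rab28 and Rab40c were tested. Rab28 read 10.20, 10.25 and 10.74 in WT and 10.21, 10.26 and 10.37 in Runx3-/-. Rab40c, a Rab with a SOCS box, read 9.42, 9.76 and 9.68 in WT and 9.59, 8.86 and 8.76 in Runx3-/- (-0.55, adjusted p = 0.356 by limma). Runx3-/- replicate 1 was inside the WT range, and without it Rab40c met the looser criterion at -0.81.

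The Rabs of secretory granules and lysosome-related organelles spread the widest. Of 11 members 8 were tested, and 1 was higher by the looser criterion, 12.5% beside 4.89% of all tested genes. The median absolute log2 difference was 0.46, against 0.19 for all tested Rabs and 0.30 for all tested genes. Rab44, an unusually large Rab that carries further domains and has been studied in mast cell degranulation, had log2 signals of 6.17, 4.20 and 7.11 in WT and 9.13, 7.55 and 7.97 in Runx3-/-. Each Runx3-/- array lay above each WT array, and WT replicate 2 was below log2 5. The signal was at least 4.36-fold higher in Runx3-/- (2.39, 95% confidence interval 0.68 to 4.10, unadjusted p = 0.0126, adjusted p = 0.195 by limma). The spread among the WT mice was large, with an SD of 1.48, and single arrays set the size. The log2 difference was 1.58 without WT replicate 2, 3.03 without WT replicate 3 and 1.93 without Runx3-/- replicate 1. Without that last array the looser criterion was no longer met (unadjusted p = 0.0508, adjusted p = 0.306 by limma). The adjusted p of Rab44 ran from 0.0865 to 0.416 over the alternatives.

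Rab37, a Rab first described on mast cell granules, came next. It read 10.15, 9.70 and 10.19 in WT and 10.55, 10.47 and 10.68 in Runx3-/-, with all Runx3-/- arrays above all WT arrays. The difference was 1.47-fold, just short of the threshold (0.56, unadjusted p = 0.0336, adjusted p = 0.274 by limma). The second Rab37 probe set read 6.90, 6.82 and 7.60 in WT and 7.60, 7.46 and 7.55 in Runx3-/-, where WT replicate 3 was as high as the highest Runx3-/- array, and gave 0.43. Rab37 met the looser criterion under 6 of the alternatives, among them those without WT replicate 1 and without WT replicate 3, and its log2 difference ran from 0.40 to 0.69 over all of them.

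Rab44, Rab37 and the sum of the basophil and mast cell markers were each higher on every Runx3-/- array than on every WT array. The plot of Rab signals against the marker sum shows this. Of all tested genes, 22.8% were without overlap between the genotypes in one direction or the other. Runx3-/- replicate 1 had the highest marker sum, 52300, and the highest Rab44 signal. The same array also had the highest macrophage sum, 12800, and the highest neutrophil sum, 4050. The other Runx3-/- arrays had sums of 31100 and 30900 and Rab44 signals of 7.55 and 7.97. The WT arrays had sums of 10800, 10900 and 13400 and Rab44 signals of 6.17, 4.20 and 7.11, so Rab44 differed widely between WT arrays of nearly equal sum. Rab37 did not peak with the sum, since its highest value, 10.68, fell on Runx3-/- replicate 3. The B cell sums separated the genotypes as well, at 1740, 1440 and 887 in WT and 4070, 2300 and 2850 in Runx3-/-, again with Runx3-/- replicate 1 the highest. The part of any of these marker lists in the Rab44 and Rab37 differences was not tested.

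**Figure D2:**
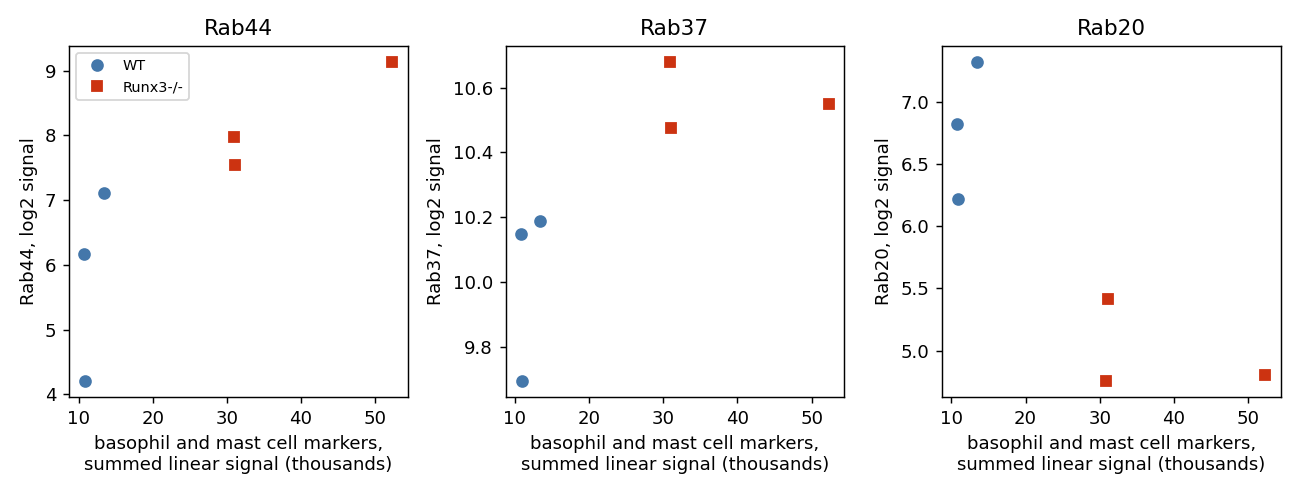
Log2 signal of Rab44, Rab37 and Rab20 (vertical axes) on each of the 6 arrays against the summed linear signal of 15 basophil and mast cell markers (horizontal axes), with circles for WT and squares for Runx3-/-. The WT sums of 10800 to 13400 and the Runx3-/- sums of 30900 to 52300 do not overlap, so marker level and genotype cannot be told apart across these arrays.

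The remaining secretory Rabs went in both directions. Rab29, which acts at the Golgi and on lysosome-related organelles, read 9.81, 10.32 and 10.07 in WT and 9.51, 9.69 and 9.56 in Runx3-/-. Its groups did not overlap, and the 1.39-fold lower mean in Runx3-/- had an unadjusted p = 0.0543 (-0.48, adjusted p = 0.317 by limma). Rab3d, a Rab of regulated exocytosis, read 9.62, 9.71 and 10.04 in WT and 9.67, 9.47 and 9.44 in Runx3-/-. Rab3a, of the same subfamily, read 7.95, 8.20 and 7.90 in WT and 8.38, 7.83 and 8.20 in Runx3-/-. Both pairs of groups overlapped. Rab27b, which docks secretory granules and exosome-bearing bodies at the plasma membrane, varied widely among the WT mice, at 9.87, 8.31 and 7.29, beside 9.08, 8.92 and 8.19 in Runx3-/-. The difference of 0.24 had a 95% confidence interval from -1.18 to 1.66, and it moved from -0.36 to 0.93 over the alternatives, with 0.93 when WT replicate 1 was left out. Its level in Runx3-/- relative to WT therefore had no settled direction. Rab32 and Rab38, which supply melanosomes and platelet granules, read 6.45, 6.18 and 6.77 in WT against 5.91, 5.78 and 6.38 in Runx3-/-, and 4.99, 6.14 and 6.71 in WT against 5.03, 4.90 and 5.61 in Runx3-/-. Rab38 was at least 1.67-fold lower in the mean (adjusted p = 0.425 by limma), but the groups overlapped at WT replicate 1, and without that array Rab38 met the looser criterion at -1.25.

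**Figure D3:**
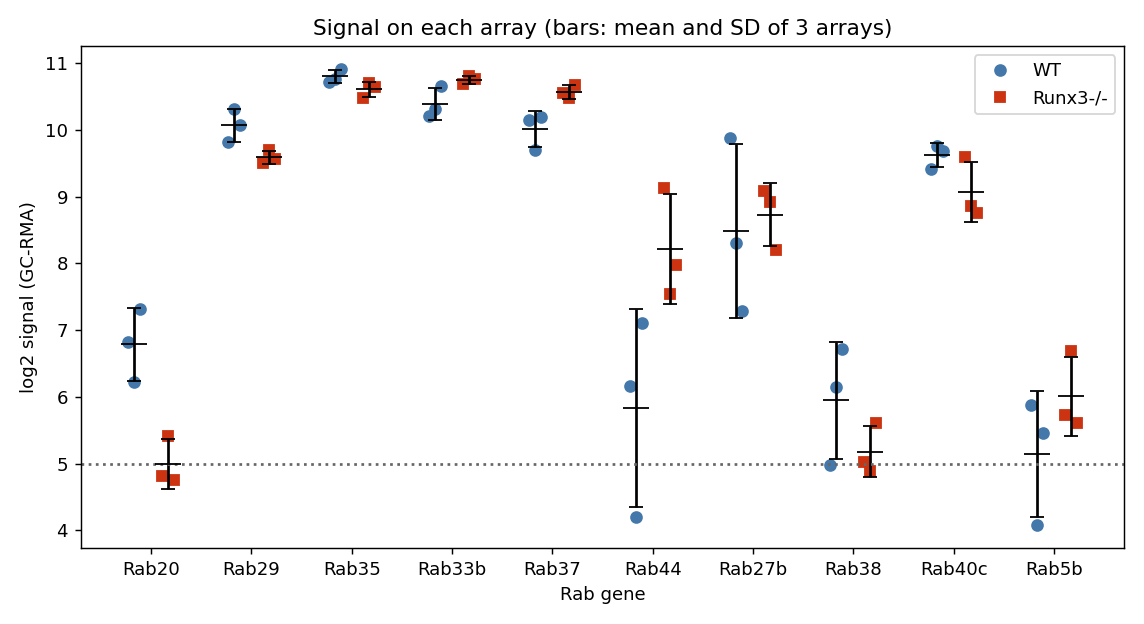
Log2 signal on each array for the 6 Rab genes whose groups did not overlap (Rab20, Rab29, Rab35, Rab33b, Rab37, Rab44) and for 4 others with a large spread or difference (Rab27b, Rab38, Rab40c, Rab5b); circles are WT, squares Runx3-/-, bars the mean and SD of 3 arrays, and the dotted line is log2 5. Levels of different genes come from different probe sets and cannot be set against each other, but within a gene the WT values of Rab44 and Rab27b are seen to spread widely.

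Many members are read by more than 1 probe set, each a group of short oligonucleotides from 1 stretch of the transcript. This held for 37 of the 58 genes, and 19 had at least 2 probe sets at log2 5 or more on all 6 arrays. In 9 of these the probe sets went opposite ways. Rab43 was the clearest case. Its brightest probe set gave -0.16, while another read 7.00, 5.96 and 7.08 in WT and 7.70, 8.16 and 7.76 in Runx3-/-, without overlap and 1.19 higher (unadjusted p = 0.00926, adjusted p = 0.214 by limma over all probe sets). For Rab14 the 7 probe sets ran from -0.55 to 1.24 around -0.04 for the brightest. The highest of them read 8.72, 6.80 and 7.01 in WT and 8.88, 9.06 and 8.30 in Runx3-/-, with overlap (unadjusted p = 0.0444, adjusted p = 0.336 by limma). The lowest read 6.55, 6.09 and 6.35 in WT and 5.64, 5.95 and 5.74 in Runx3-/-, without overlap (unadjusted p = 0.0370, adjusted p = 0.316 by limma). Whether these reflect transcript forms or cross-hybridisation was not tested. In the other 7, Rab11b, Rab1a, Rab27b, Rab2a, Rab3a, Rab4a and Rab7, the opposite values lay between -0.22 and 0.48. Probe sets for Rab14, Rab22a and Rab4a carry the suffix for oligonucleotides shared by several transcripts, and those for Rab38 and Rab3a the suffix for possible cross-hybridisation, so their values are less certain.

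**Figure D4:**
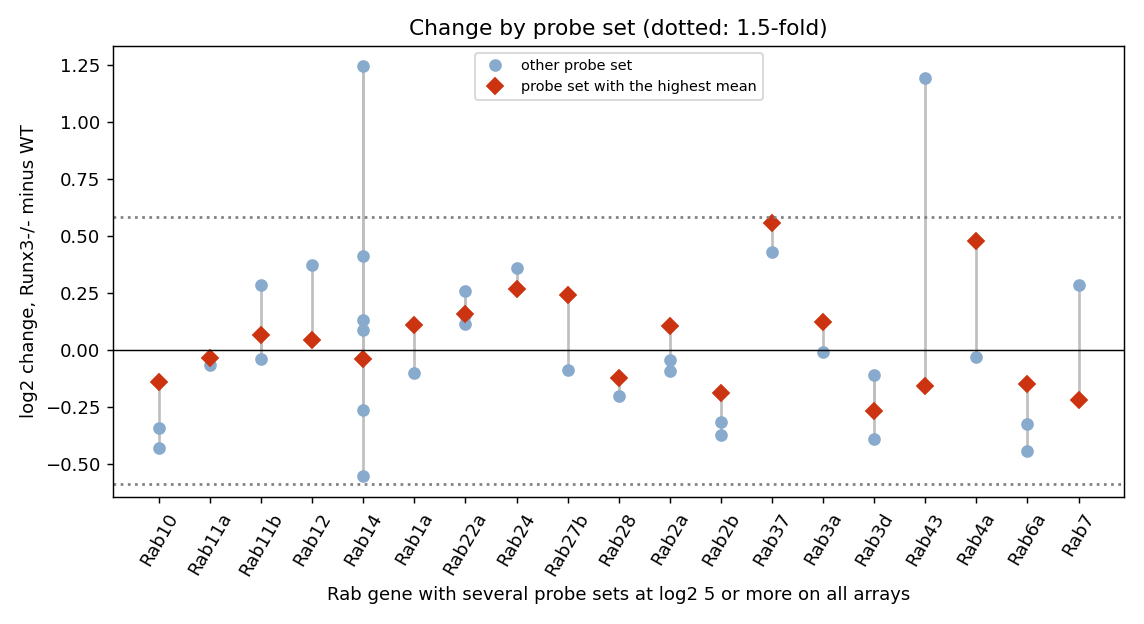
Log2 difference, Runx3-/- minus WT, of every probe set at log2 5 or more on all 6 arrays for the 19 Rab genes with at least 2 of them; diamonds mark the probe set with the highest mean, which stands for the gene, circles the others, and dotted lines 1.5-fold. Rab43 at 1.19 and Rab14 at 1.24 are the probe sets outside the dotted lines.

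The other genes of the Rab cycle were counted in the same fit, from lists of 125 genes on the array. Of these 96 were tested, and none passed BH 5% in limma. By the looser criterion 4 were higher, 4.17% beside 4.89% of all tested genes, and 4 were lower, 4.17% beside 8.86%. Of 26 tested exchange factors, 0 were higher and 2 lower, 7.69% beside the 8.86% of all genes, with a median log2 difference of -0.18. Mon1a, of the complex that activates Rab7, read 8.77, 9.21 and 9.20 in WT and 8.50, 7.79 and 8.23 in Runx3-/- (-0.88, adjusted p = 0.178 by limma). Rab3ip, the Rabin8 exchange factor for Rab8, read 7.87, 7.43 and 7.62 in WT and 6.88, 6.98 and 6.49 in Runx3-/- (-0.86, adjusted p = 0.155 by limma). Neither gene had overlapping groups. Their targets Rab7, Rab8a and Rab8b gave log2 differences of -0.22, -0.20 and 0.15 and did not meet the criterion.

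Of 29 tested GTPase-activating proteins, 3 were higher, 10.3% beside 4.89% of all genes, and 1 lower, 3.45% beside 8.86%, and the median was -0.16. Tbc1d4, the AS160 protein that acts on Rab10 and relatives in insulin-driven glucose transporter traffic, read 7.35, 6.96 and 7.49 in WT and 8.51, 8.71 and 8.25 in Runx3-/-. All Runx3-/- arrays lay above all WT arrays, a 2.33-fold difference (1.22, unadjusted p = 0.000933, adjusted p = 0.0774 by limma). With weighted arrays its adjusted p by limma was 0.0373, and with the mean of its 2 probe sets it was 0.218 at a log2 difference of 0.94. Tbc1d8 read 4.38, 5.04 and 5.66 in WT and 7.42, 5.99 and 6.79 in Runx3-/-, at least 2.83-fold higher (adjusted p = 0.150 by limma). Its log2 difference of 1.71 became 0.88 with the mean of its 2 probe sets. Usp6nl, which acts on Rab5, read 6.35, 6.90 and 6.72 in WT and 7.63, 7.24 and 7.12 in Runx3-/- (0.67, adjusted p = 0.240 by limma). Tbc1d25 was the lower one, at 7.15, 7.55 and 7.31 in WT and 6.61, 6.54 and 6.91 in Runx3-/- (-0.65, adjusted p = 0.214 by limma).

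The shared machinery of prenylation and membrane extraction did not meet the criterion in any of its 7 tested genes, whose median was 0.10. Gdi2, a GDP dissociation inhibitor, read 14.16, 13.78 and 13.39 in WT and 13.87, 13.81 and 13.83 in Runx3-/-. The geranylgeranyl transferase subunits Rabggta and Rabggtb gave 0.10 and -0.35. Chm, the escort protein Rep1, gave 0.90 with overlapping groups, at 9.46, 9.07 and 7.71 in WT and 9.36, 10.27 and 9.32 in Runx3-/- (adjusted p = 0.393 by limma). Among 34 tested effectors 1 was higher and 1 lower, 2.94% each beside 4.89% and 8.86%, with a median of -0.18. Rab11fip4, which binds Rab11, read 6.84, 6.73 and 6.45 in WT and 8.04, 7.43 and 7.38 in Runx3-/- (0.95, adjusted p = 0.154 by limma). Vps33a, of the tethering complexes that act with Rab7 and Rab5, read 10.47, 10.50 and 10.52 in WT and 10.03, 9.89 and 9.53 in Runx3-/- (-0.68, adjusted p = 0.189 by limma). Every cycle gene past the criterion was without overlap between the groups, as every Rab gene past it was. The criterion was computed from the same arrays, so this is no separate support. Of the tested cycle genes 16.7% were without overlap, beside 22.8% of all tested genes. The basophil and mast cell sums and the B cell sums given above did not overlap between the genotypes, and their part in these differences was not tested.

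**Figure D5:**
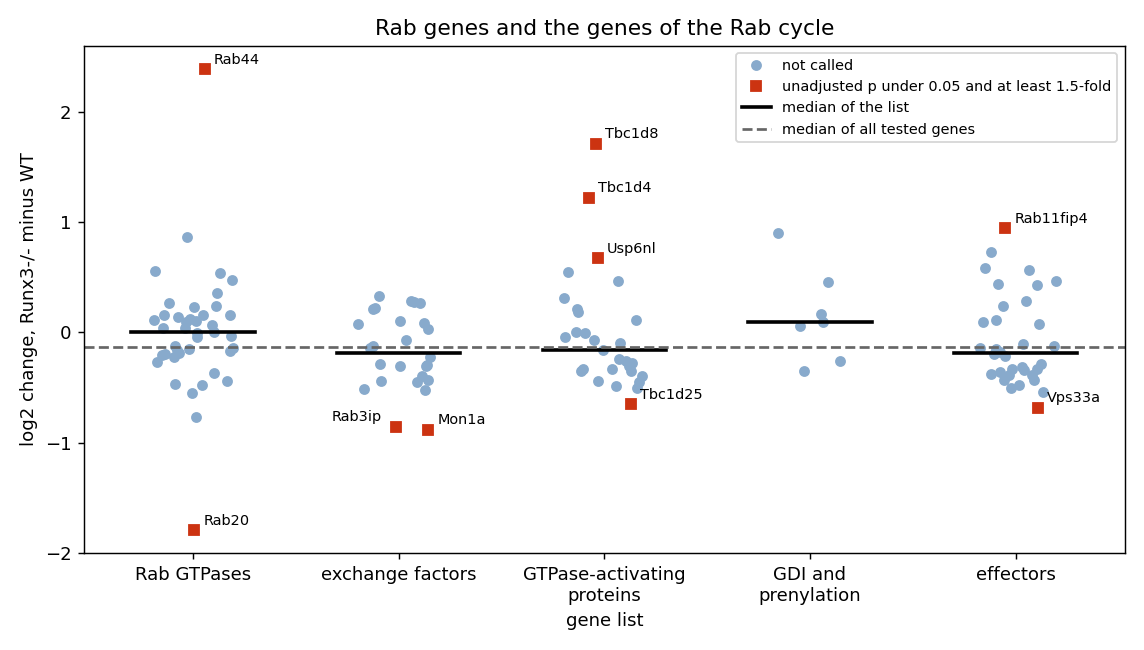
Log2 difference, Runx3-/- minus WT, of each tested Rab gene and of each tested gene of the Rab cycle by list; squares mark genes with an unadjusted p under 0.05 and at least 1.5-fold, solid lines the median of each list and the dashed line the median of all tested genes, -0.13. The Rab median of 0.01 and the GDI and prenylation median of 0.10 lie above that line, and those of exchange factors, GTPase-activating proteins and effectors, -0.18, -0.16 and -0.18, lie below it.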

How the data were processed

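The authors processed the scanner files with GC-RMA in Partek and deposited them as log2 signals of 45101 probe sets for 6 arrays, with no version in the submitters' processing notes. GC-RMA models background from base content and gives arrays a common distribution, so a change in total RNA per cell cannot be seen. Names came from the platform annotation and were matched by gene identifier for all 58 Rab genes. Of the 45101 probe sets, 34945 had 1 symbol, 932 several and 9160 none listed. The probe set with the highest mean stood for a gene. The study filtered on signal above background without stating the level, and log2 5 served here.

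The genotypes were compared in R 4.3.3 with limma 3.58.1 (lmFit, eBayes) over 9545 genes, with Benjamini-Hochberg (BH) adjustment over all of them. The looser criterion follows the study's thresholds of an unadjusted p under 0.05 and 1.5-fold; its test is not named. Where an array of the lower group lay under log2 5, the fold is "at least", with lower values raised to 5. Named genes were the called or non-overlapping Rabs, up to 6 per role by mean signal, those with discordant probe sets, and called cycle genes; Rab4b, Rab17, Rab18, Rab27b, Rab38, Rab40c and some prenylation genes were named after their values were seen. Members and lists were chosen with earlier results of these data known. The fit was tested on simulated data. No pair of arrays was a copy, and the number of arrays limits the precision. Alternatives covered filter, normalization, floor, probe sets, moderation, weights and single arrays. One family gene is not reported here.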

Additional observations from a re-analysis of the deposited data

How the results depend on the processing

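The Rab count past BH 5% was 0 and became 1, Rab20, with quantile normalization. The count of higher Rab genes by the looser criterion was 1. It became 2 with arrays centred on their median, 2 with arrays centred on their median over the tested genes and 2 with quantile normalization, Rab37 being added each time, and 3 with every probe set tested (Rab14, Rab43) or with limma arrayWeights (Rab37, Rab5b). Leaving out single arrays gave 0 to 3, with 0 without Runx3-/- replicate 1 and 3 without WT replicate 1. The count of lower Rab genes was 1, became 3 with arrayWeights (Rab38, Rab40c added), and ran from 1 to 3 over single arrays left out, with 3 without WT replicate 1. Rab29 met the criterion without WT replicate 1, at -0.60. Of the genes of the Rab cycle, 0 passed BH 5%, or 1 with arrayWeights, and leaving out arrays gave 0 to 0. The higher count was 4, and 8 with every probe set tested. Over arrays left out it ran from 4 to 11, the 11 being without WT replicate 1. The mean of all probe sets gave 2, with Rab11fip4 and Usp6nl no longer called. The lower count was 4, with 2 after centring over the tested genes and 7 with arrayWeights. Over arrays left out it ran from 3 to 14, the 14 being without Runx3-/- replicate 1. Calls over all genes changed with these settings too. They were 467 higher and 846 lower of 9545 genes in the main fit. Without WT replicate 1 they were 674 and 1214 of 9513, and without Runx3-/- replicate 1 they were 404 and 1023 of 9451. ArrayWeights gave 574 and 1210, with 203 past BH 5% in place of 58. Quantile normalization gave 501 and 769, with 54 past BH 5%. Testing every probe set gave 720 and 1094 genes. The median Rab difference was 0.01, against -0.039 with every probe set tested, 0.13 with centring over the tested genes and -0.052 to 0.011 over arrays left out (lowest without WT replicate 2). That centring, chosen after seeing the data, moved the median of all genes from -0.13 to -0.01, so the Rab median stood above that of all genes either way. It turned the calls over all genes from 467 higher and 846 lower to 627 and 498, and the Rab split from 21 higher and 20 lower to 25 and 16. Neither Rab20 nor Rab44, the Rab genes called in the main fit, turned in direction. Calls made only under an alternative could differ in direction. Tbc1d1 was called higher at 0.81 with every probe set tested and lower at -0.71 without WT replicate 1. Rab43 and Rab14 were called higher from probe sets other than their brightest, which gave -0.16 and -0.04. Of the 35 tested Rab genes whose groups overlapped, 21 turned in sign under at least 1 alternative, so their directions are not settled. The cause was not tested.

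Replicate numbers are shared between the groups, and the sample titles do not say whether they pair the mice. The deviations of same-numbered arrays correlated at 0.07, -0.19 and 0.15, and those of other pairs at -0.27 to 0.22. With 3 arrays a group these values cannot decide whether same-numbered mice were handled together. The main fit used no pairing. With the replicate number as a block, 0 Rab genes passed BH 5%, and 1 was higher and 1 lower. Among all genes the block left 0 past BH 5%, where 58 passed without it; leaving out any single array other than WT replicate 1 also left 0, and without WT replicate 1 there were 130. The 95% confidence interval lay within 1.5-fold for 7 of the 41 tested Rab genes, so for most of the family a difference of that size could not be judged from 3 arrays a group.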
